A study of Mus musculus with 23 samples.

Results

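Most aldehyde dehydrogenases oxidise reactive aldehydes to carboxylic acids with NAD+ or NADP+ as the acceptor of electrons. The members handle different but overlapping sets of substrates, among them aldehydes from amino acids, folate, retinoids, fatty acids and lipid peroxidation. Astrocytes carry several of them, and ALDH1L1 is a standard astrocyte marker. Aldh7a1, the member deleted in this study, encodes the α-aminoadipic semialdehyde dehydrogenase of lysine breakdown. The 10 relatives described here, Aldh1a1, Aldh1b1, Aldh1l1, Aldh2, Aldh3a2, Aldh4a1, Aldh5a1, Aldh6a1, Aldh9a1 and Aldh18a1, were taken by symbol from the 24411 genes of the count table, to ask whether any of them differed where Aldh7a1 was lost or where mice ate sulforaphane (SFN). SFN activates the transcription factor NRF2, which drives genes for antioxidant and detoxifying enzymes.

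RNA was sequenced from cortical astrocytes of 23 mice, isolated by magnetic sorting for the surface antigen ACSA-2. All mice were labelled male, aged postnatal day 70, and homozygous for Aldh7a1-Flox, and all received 4-hydroxytamoxifen at postnatal days 3 to 4. ConAstro mice (n = 4) lacked Cre and cKOAstro mice (n = 7) carried Slc1a3-CreER on 1 allele. The same genotypes were also raised on SFN from postnatal day 21, with 5 mice in SFN-fed ConAstro and 7 in SFN-fed cKOAstro. The p-values below measure the spread between these mice. The CreER sits at Slc1a3, an astrocyte glutamate transporter, so the loss of Aldh7a1 cannot be told apart from the CreER allele itself. In a sorted population, fewer cells of a type and less RNA per cell cannot be told apart either.

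The label checks came first. Aldh7a1 lay between 207 and 220 CPM (counts-per-million of the library total) in ConAstro and between 45.9 and 77.2 CPM in cKOAstro, and its log2 fold change of -1.86 ± 0.13 (SE) passed edgeR's quasi-likelihood test (adjusted p = 6.94e-05). The library labelled SFN-fed ConAstro 1 had 55.7 CPM of Aldh7a1 against 177 to 226 CPM in the other 4 of its group. The library labelled SFN-fed cKOAstro 2 had 222 CPM against 43.0 to 56.5 CPM in the other 6. Slc1a3 lay at the level of the opposite genotype in both, at 2100 and 4440 CPM, and so did Esr1, whose ligand-binding domain is part of CreER. The library labelled cKOAstro 2 had 1540 CPM of Xist and 0.0077 CPM of Ddx3y, against at most 0.706 and at least 83.6 CPM in the other 22. Libraries were kept in their labelled groups, and the values nearest the threshold are also given without them. Astrocyte markers summed to 16000 to 28800 CPM in every group, and oligodendrocyte markers to 22500 to 58100 CPM, so the sorted material also held oligodendrocyte RNA. Totals ran from 46890715 to 391701247 counts, and all cKOAstro libraries were deeper than all of ConAstro.

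NRF2 binds the antioxidant response element, so the promoters were searched for its core letters, TGACNNNGC, on both strands, from 250 bases before to 50 after each start in the RefSeq table of GRCm38.p6. Windows were given for 9 of the 10 members, all but Aldh2. The core was found in 1 of 9 members (11.1%), beside 14% of 27025 genes and 38.5% of 26 known NRF2 target genes with a window. The 1 match lay 87 bases before the start of Aldh9a1 (gene at chromosome 1, 167349991 to 167368532, plus strand). It is shown because Aldh9a1 is the member that carries the core, with the core in capitals, at chr1:167349894-167349922 on the plus strand.
Aldh9a1: ttaattatgcTGACTAGGCccaagctact
Aldh9a1 had log2 fold changes of 0.034 ± 0.049 and 0.063 ± 0.063 with SFN in ConAstro and in cKOAstro. The difference from 0 was within its error in both. A match is a description of letters in the window and says nothing of binding. Only 10 of the 26 known target genes had the core in this window, so its absence from a member does not speak to elements elsewhere.

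Per length of exon, the family spanned a wide range of levels and kept nearly the same order in every group. Aldh1l1, which oxidises 10-formyltetrahydrofolate in folate metabolism, stood first with 74.8 ± 7.99 CPM per kb in ConAstro (SD, n = 4). Aldh2, the mitochondrial enzyme for acetaldehyde and lipid peroxidation aldehydes, followed with 52.5 ± 4.65 CPM per kb. These 2 genes made up 28.3% and 19.9% of the summed level of the 10 in ConAstro, and 28.4% and 19.2% in cKOAstro. Aldh7a1 itself stood between Aldh2 and Aldh6a1 in ConAstro with 41.3 ± 1.14 CPM per kb, and beside Aldh1a1 in cKOAstro with 11.4 ± 2.26 CPM per kb.

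Aldh6a1, the methylmalonate semialdehyde dehydrogenase of valine breakdown, and Aldh9a1, which oxidises γ-trimethylaminobutyraldehyde in carnitine synthesis, stood next with 32.3 ± 2.47 and 29.3 ± 1.2 CPM per kb in ConAstro. Their ranges overlapped in all 4 groups, so their order was not resolved. The same held for Aldh5a1, the succinic semialdehyde dehydrogenase of the GABA shunt, at 22.3 ± 1.91 CPM per kb, and Aldh4a1, the pyrroline-5-carboxylate dehydrogenase of proline breakdown, at 21.5 ± 1.17 CPM per kb. Aldh3a2, the fatty aldehyde dehydrogenase, had 14.3 ± 0.19 CPM per kb, and Aldh1a1, a cytosolic enzyme that makes retinoic acid from retinaldehyde, had 13.0 ± 1.11 CPM per kb. Aldh18a1, which makes pyrroline-5-carboxylate from glutamate on the way to proline, had 3.40 ± 0.40 CPM per kb, and Aldh1b1, a mitochondrial acetaldehyde dehydrogenase, had 0.439 ± 0.0886 CPM per kb. Aldh1b1 was the one member of low depth, with 40 to 476 counts in a library. With the longest transcript in place of all exons as the length, the first 4 and the last 2 places were the same in each group while the 4 genes between them changed places. The levels themselves depended on this choice, as 28 of 40 moved by more than 1 SD. For Aldh1a1 the length went from 4937 to 2358 bases, so its place beside other genes holds only for the exon length.

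**Figure D1:**
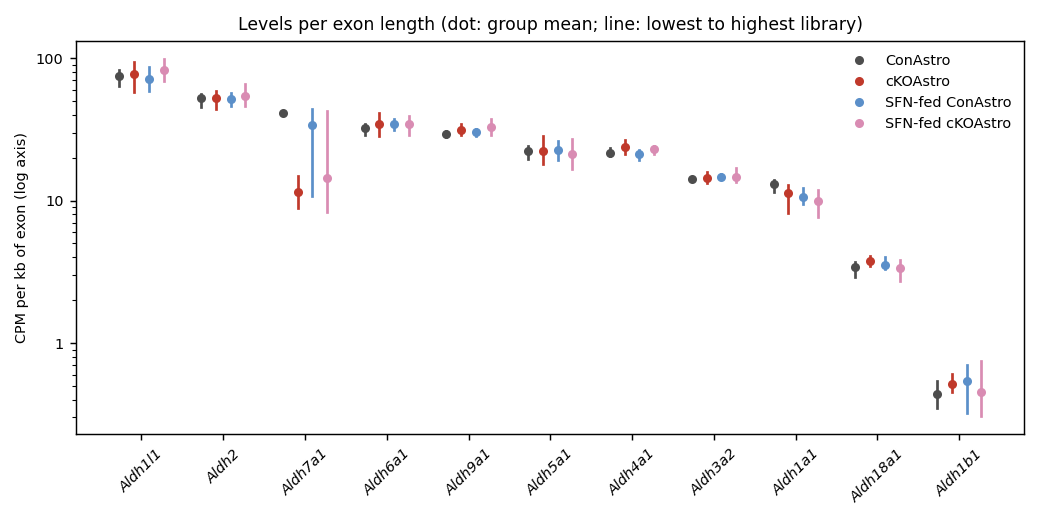
Levels of the 10 relatives and Aldh7a1 in CPM per kb of exon (log axis), by group, with the group mean as a dot and the lowest to highest library as a line. Aldh1l1 is highest at 74.8 CPM per kb in ConAstro and Aldh1b1 lowest at 0.439, and only Aldh7a1 shows separate levels by genotype, apart from its libraries against their label.

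None of the 10 relatives passed the test for genotype on the control diet, where 0.023% of 17406 genes did (4 genes, adjusted p under 0.05). None passed at an unadjusted p under 0.05 either, against 3.74% of all genes, and DESeq2 called 0 of the 10 as well. Of the 10, 8 had a mean above that of ConAstro, with a median log2 fold change of 0.061 beside -0.0072 over all genes. The values ran from -0.22 for Aldh1a1 to 0.23 for Aldh1b1, with adjusted p-values of at least 0.981.

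Aldh4a1, closest to the threshold on the control diet, read 103, 101, 104 and 114 CPM in the 4 ConAstro libraries and 104, 118 and 130 CPM (lowest, median and highest) in cKOAstro. The 4 highest cKOAstro libraries lay above all ConAstro libraries while the other 3 lay within their range. The log2 fold change was 0.14 ± 0.067 (95% confidence interval -0.0050 to 0.29; edgeR adjusted p = 0.981). Aldh1a1 read 67.6, 56.5, 68.4 and 65.1 CPM in ConAstro and 40.7, 60.1 and 63.6 CPM in cKOAstro. All 7 cKOAstro libraries lay below the ConAstro median, and 3 lay below every ConAstro library. Its log2 fold change was -0.22 ± 0.12 (interval -0.48 to 0.041; edgeR adjusted p = 0.981).

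Aldh9a1 read 104, 95.1, 97.0 and 99.9 CPM in ConAstro and 97.9, 106 and 118 CPM in cKOAstro, with 5 of 7 above all controls and a log2 fold change of 0.099 ± 0.055 (edgeR adjusted p = 0.981). Aldh18a1 read 11.9, 15.2, 13.1 and 15.2 CPM in ConAstro and 14.2, 15.4 and 16.6 CPM in cKOAstro (log2 fold change 0.14 ± 0.081, edgeR adjusted p = 0.981). For these genes the groups overlapped. The most tightly measured member was Aldh3a2, with 80.5, 80.4, 78.6 and 81.1 CPM in ConAstro and 74.7, 79.4 and 89.4 CPM in cKOAstro. Its log2 fold change was 0.00082 ± 0.049, and its interval allowed a difference of -7.07% to 7.73%.

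The abundant members gave intervals of moderate width. Aldh1l1 read 340, 348, 289 and 375 CPM in ConAstro and 263, 363 and 422 CPM in cKOAstro, with a log2 fold change of 0.043 ± 0.12 (interval -0.23 to 0.31). Aldh2 read 234, 281, 277 and 285 CPM in ConAstro and 227, 266 and 303 CPM in cKOAstro, with -0.015 ± 0.086 (interval -0.20 to 0.17). In both genes the lowest and the highest library were cKOAstro libraries.

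Aldh5a1 read 130, 127, 110 and 136 CPM in ConAstro and 103, 124 and 161 CPM in cKOAstro, with a log2 fold change of 0.0028 ± 0.10 (interval -0.23 to 0.23). Aldh6a1 read 199, 195, 167 and 188 CPM in ConAstro and 165, 194 and 237 CPM in cKOAstro, with 0.078 ± 0.091 (interval -0.12 to 0.28). The cKOAstro libraries of both genes spread to either side of the ConAstro range. Aldh1b1 read 0.886, 0.801, 1.09 and 1.25 CPM in ConAstro and 1.04, 1.17 and 1.38 CPM in cKOAstro, where 2 of 7 lay above all controls. Its log2 fold change was 0.23 ± 0.16, and its interval, -0.11 to 0.57, was the widest of the 10.

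The summed CPM of the 10 genes was 1204 to 1360 in ConAstro and 1109 to 1509 in cKOAstro, with means of 1284 ± 64.9 and 1318 ± 146 CPM. Of the 10 intervals on the control diet, the highest upper limit of the 9 members other than Aldh1b1 was that of Aldh1l1 and Aldh18a1, 0.31 on the log2 scale. Every ConAstro library carried the same name prefix and no cKOAstro library did, so that prefix and genotype cannot be told apart on the control diet. Endothelial markers were lower in cKOAstro (median log2 fold change -0.48, 10 of 10 below 0) and so were microglia markers (-0.24, 10 of 10). Choroid plexus markers also had fold changes below 0 (-1.68, 6 of 6), but their summed level varied widely within each group. It had a median of 24.4 CPM in ConAstro (13.4 to 4370) and of 25 CPM in cKOAstro (15 to 1840), so the middle libraries were alike. Neuron markers (0.35, 11 of 11 above 0) and ependymal markers (0.36, 8 of 8) were higher, with 0 of any list past the adjusted threshold. Their part in the member values was not tested. Without the cKOAstro library high in Xist, the log2 fold changes were 0.12 ± 0.060 for Aldh4a1, -0.22 ± 0.13 for Aldh1a1, 0.078 ± 0.049 for Aldh9a1 and 0.16 ± 0.083 for Aldh18a1 (edgeR adjusted p = 0.976 for each).

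**Figure D2:**
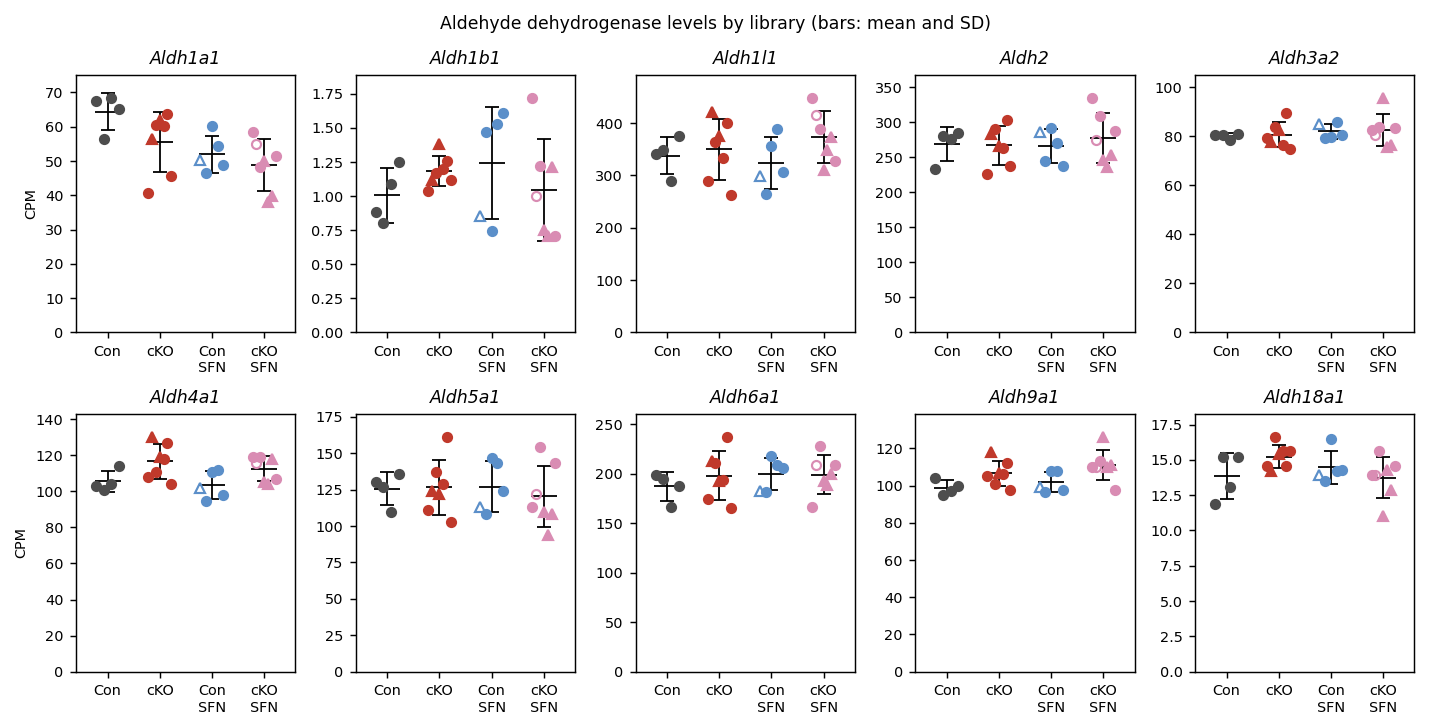
CPM of each relative in every library, by group (Con, ConAstro; cKO, cKOAstro; SFN, SFN-fed), with the mean and SD as black bars; triangles are libraries with an Astro name, circles numbered libraries, and open symbols the 2 libraries that go against their genotype label. The groups overlap for all 10 genes, and for Aldh1a1 the SFN-fed ConAstro libraries sit between 46.4 and 60.2 CPM, 4 of 5 below every ConAstro library.

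On the SFN diet, none of the 10 differed by genotype past the adjusted threshold, and neither did any of 16672 genes (0%). With libraries kept as labelled, the deleted gene Aldh7a1 had a log2 fold change of -1.25 ± 0.45 and did not pass (edgeR adjusted p = 0.195). The lack of a call in this fit therefore does not show that a member was unchanged. At an unadjusted p under 0.05 there were 0 of 10 members, against 20.3% of all genes. DESeq2 called 250 genes in this comparison, none of them a member. Without SFN-fed cKOAstro 3, edgeR called 701 genes and again 0 members. Without the libraries against their label it called 2 genes and 0 members, and the cause of these shifts was not tested. Of the 10 values, 5 lay above 0, in a range from -0.25 for Aldh1b1 to 0.20 for Aldh1l1. Aldh4a1 read 102, 94.8, 111, 112 and 98.2 CPM in SFN-fed ConAstro and 104, 116 and 119 CPM (lowest, median and highest) in SFN-fed cKOAstro, where 4 of 7 lay above all controls (log2 fold change 0.12 ± 0.064, edgeR adjusted p = 0.308). Aldh9a1 read 99.2, 96.7, 108, 108 and 97.8 CPM against 97.8, 110 and 126 CPM, with 6 of 7 above all controls (0.12 ± 0.068, edgeR adjusted p = 0.313). These counts include the libraries against their label. In the numbered libraries alone, Aldh9a1 had 0.051 ± 0.071 and Aldh4a1 0.13 ± 0.074. Without the libraries against their label, values ran from -0.34 to 0.15 and the lowest adjusted p was 0.487. Median sums in SFN-fed cKOAstro and SFN-fed ConAstro were 562 and 1890 CPM for microglia markers and 309 and 640 CPM for endothelial markers. They were 148 and 274 CPM for oligodendrocyte precursor markers and 1270 and 1850 CPM for mural cell markers. Fibroblast and meningeal (2240 and 1460 CPM), oligodendrocyte (33900 and 30300 CPM) and ependymal markers (360 and 245 CPM) went the other way. The ranges overlapped in each, and the part of these markers was not tested.

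With genotype adjusted for diet over all 23 libraries, 2 of the 10 had an unadjusted p under 0.05, against 20.6% of all genes, and 0 passed the adjusted threshold, like 0% of 17302 genes. Aldh7a1 itself had -1.53 ± 0.26 in this fit and did not pass (edgeR adjusted p = 0.0895). Without SFN-fed cKOAstro 3 edgeR called 215 genes and 0 members. Aldh4a1 had a log2 fold change of 0.13 ± 0.045 (interval 0.039 to 0.22; edgeR adjusted p = 0.159), with 8 of 14 cKO libraries above all 9 controls. Aldh9a1 had 0.12 ± 0.041 (interval 0.031 to 0.20; edgeR adjusted p = 0.16), also with 8 of 14 above all controls. The share of members was close to that of all genes. Without the libraries against their label the values were 0.12 ± 0.047 for Aldh4a1 and 0.11 ± 0.046 for Aldh9a1 (adjusted p = 0.296 and 0.302). Without the library high in Xist they were 0.12 ± 0.040 and 0.10 ± 0.040, and in numbered libraries alone Aldh9a1 had 0.066 ± 0.039 and Aldh4a1 0.12 ± 0.046. Endothelial markers stood at a median of -0.67 in the same fit, and their part was not tested.

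With SFN in ConAstro, Aldh1a1 stood lower in most SFN-fed libraries, but none of the 10, nor any of 16509 genes (0%), passed the adjusted threshold. At an unadjusted p under 0.05 there was 1 of 10, against 6.54% of all genes, and DESeq2 called 24 genes, none of them a member. The 1 member was Aldh1a1 (mouse chromosome 19, 20492715 to 20643465 of GRCm38, plus strand). It read 50.2, 46.4, 60.2, 54.3 and 48.8 CPM in SFN-fed ConAstro, where 4 of 5 libraries lay below all 4 of ConAstro and the fifth, at 60.2 CPM, lay above the lowest of them. The log2 fold change was -0.32 ± 0.086, a change of -19.7% (interval -29.7% to -8.28%; edgeR adjusted p = 0.762). Without the SFN-fed ConAstro library against its label it was -0.31 ± 0.091 (adjusted p = 0.556). Every ConAstro library carried the same name prefix and no SFN-fed ConAstro library did, so that prefix and SFN cannot be told apart in this comparison.

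The other 9 members lay closer to 0 with SFN in ConAstro. Aldh3a2 had a log2 fold change of 0.026 ± 0.037 (interval -0.056 to 0.11) and Aldh9a1 one of 0.034 ± 0.049. Aldh4a1, Aldh2 and Aldh1l1 had -0.032 ± 0.060, -0.023 ± 0.083 and -0.070 ± 0.11. Aldh6a1 had 0.089 ± 0.070, and Aldh1b1, the member with the fewest counts, had 0.29 ± 0.28. Over the 10 the median was 0.017, beside -0.0055 over all genes. Markers of other cells also differed in level, with endothelial markers higher by a median of 0.59 (10 of 10 above 0), fibroblast and meningeal markers by 0.44 (9 of 10) and ependymal markers at -0.32 (8 of 8 below 0), none past the threshold. Summed astrocyte markers had a median of 24800 CPM in ConAstro (20900 to 26400) and 22500 CPM in SFN-fed ConAstro (20400 to 28100). Over all 23 libraries, Aldh1a1 had a Pearson's r of 0.52 with the summed astrocyte markers, on the log2 scale. Among the marker lists this r was the highest, and the lowest was -0.395, for fibroblast and meningeal markers. The part of any of these markers in the Aldh1a1 value was not tested.

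In cKOAstro mice, SFN gave no member past the adjusted threshold, 0% of 16903 genes passed, and 0 of 10 members had an unadjusted p under 0.05 against 10.9% of all genes. DESeq2 called 15 genes and none of the members. Aldh1a1 read 38.1, 50.1 and 58.5 CPM (lowest, median and highest) in SFN-fed cKOAstro, all 7 below the cKOAstro median of 60.1 CPM, and the log2 fold change was -0.19 ± 0.12 (interval -0.43 to 0.064; edgeR adjusted p = 0.532). In the numbered libraries alone it was -0.048, and with the name prefix as a covariate -0.47. Aldh18a1 read 11, 13.9 and 15.6 CPM against 14.2, 15.4 and 16.6 CPM, with 4 of 7 below all cKOAstro libraries (-0.15 ± 0.072, adjusted p = 0.469). Without the cKOAstro library high in Xist, Aldh1a1 had -0.19 ± 0.13 and Aldh18a1 -0.17 ± 0.077 (adjusted p = 0.536 and 0.427). Without the SFN-fed cKOAstro library against its label they were -0.22 ± 0.12 and -0.15 ± 0.079 (adjusted p = 0.665 and 0.662). The highest member value was 0.096, for Aldh1l1. Oligodendrocyte markers stood at a median of 0.31 in this comparison (10 of 10 above 0) and ependymal markers at -0.45 (8 of 8 below 0), with 0 past the threshold. Median sums in SFN-fed cKOAstro and cKOAstro were 562 and 1300 CPM for microglia markers and 148 and 234 CPM for oligodendrocyte precursor markers. They were 2240 and 1440 CPM for fibroblast and meningeal markers, and 21500 and 23700 CPM for astrocyte markers. The ranges overlapped in each, and the part of these markers was not tested.

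Against ConAstro, which differs from them in both genotype and diet, SFN-fed cKOAstro libraries had 6 of 7 Aldh1a1 values below all controls. The log2 fold change was -0.41 ± 0.12, a change of -25.0% (interval -37.1% to -10.5%; edgeR adjusted p = 0.557). It was the 1 of 10 members at an unadjusted p under 0.05, against 8.67% of all genes, and no member and 0% of 16753 genes passed the adjusted threshold. Aldh7a1 itself had -1.54 ± 0.42 here and did not pass (edgeR adjusted p = 0.557). DESeq2 called 8 genes and no member, while limma-voom with sample quality weights gave Aldh1a1 an adjusted p of 0.0493. Aldh9a1 had 0.15 ± 0.071 (adjusted p = 0.557), with 6 of 7 above all controls. Without the library against its label, Aldh1a1 had -0.43 ± 0.12 and Aldh9a1 0.17 ± 0.077 (adjusted p = 0.74 for both). This comparison shares ConAstro with the previous ones, and SFN-fed cKOAstro with others. Astrocyte markers had a median of -0.047 in it and the choroid plexus markers one of -2.47, with 0 past the threshold. Summed choroid plexus markers had a median of 49.5 CPM in SFN-fed cKOAstro (9.44 to 985) and of 24.4 CPM in ConAstro (13.4 to 4370). In the same order, median sums were 562 and 1640 CPM for microglia markers and 2240 and 1280 CPM for fibroblast and meningeal markers. The ranges overlapped in each, and the part of these markers was not tested.

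With diet adjusted for genotype over all libraries, Aldh1a1 was again the 1 member of 10 at an unadjusted p under 0.05, against 8.33% of all genes, and 0% of 17302 genes passed the adjusted threshold. All 12 SFN libraries lay below the median of the 11 others. The log2 fold change was -0.23 ± 0.081 (interval -0.40 to -0.066; edgeR adjusted p = 0.582), -0.26 ± 0.086 without the libraries against their label, and -0.17 ± 0.090 (adjusted p = 0.75) in the 17 numbered libraries. SFN-fed cKOAstro libraries with an Astro name had a mean of 42.7 CPM of Aldh1a1, 0.80 times that of the numbered ones, while this ratio was 1.09 in cKOAstro and 0.958 in SFN-fed ConAstro. Such names were carried by 3 of 7 SFN-fed cKOAstro and 2 of 7 cKOAstro libraries. Endothelial markers had a median of 0.42 with diet (10 of 10 above 0), and their part was not tested. The interaction of genotype and diet gave 0 of 10 members at either threshold, against 0% and 7.32% of genes, with the lowest p for Aldh18a1 (-0.21 ± 0.12, adjusted p = 0.686). For Aldh1a1 the interaction was 0.12 ± 0.17, with an interval of -0.23 to 0.47 that allowed a difference between the genotypes in either direction. Without the libraries against their label, the interaction was 0.084 ± 0.18 for Aldh1a1 and -0.23 ± 0.13 for Aldh18a1 (adjusted p = 0.929 and 0.635).

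**Figure D3:**
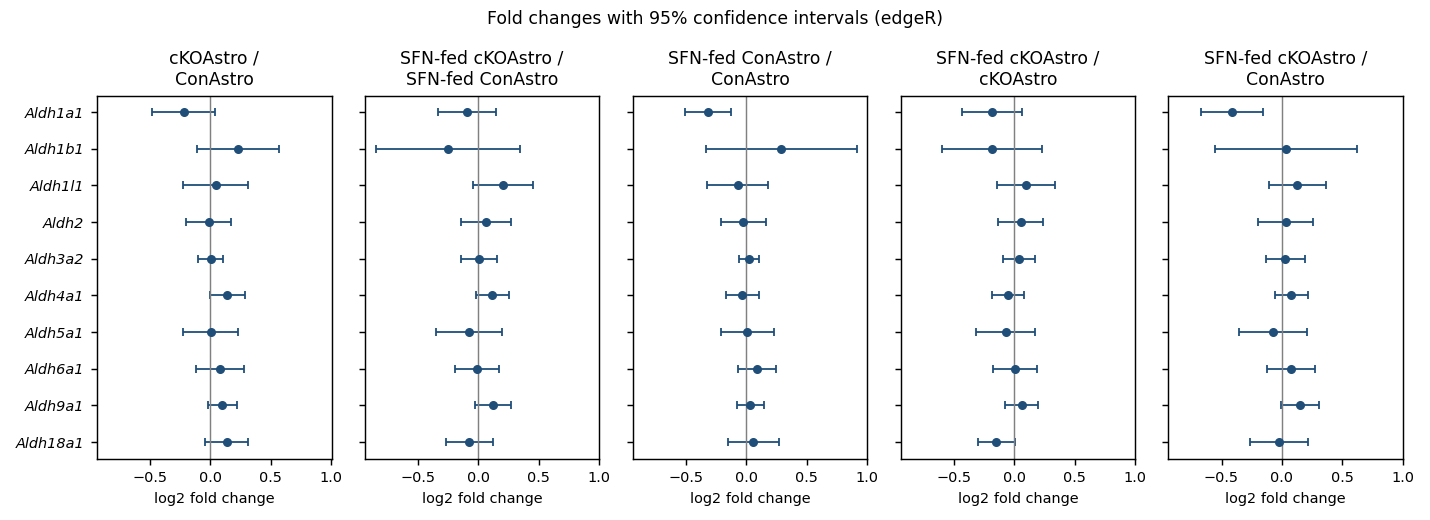
Log2 fold changes of the 10 relatives in the 5 comparisons of 2 groups, each as a dot with its 95% confidence interval from edgeR. Aldh1a1 has intervals below 0 with SFN in ConAstro (-0.51 to -0.12) and in SFN-fed cKOAstro against ConAstro (-0.67 to -0.16), before adjustment over genes, and all other intervals reach across 0.

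Aldh1a1 has a close relative beside it, Aldh1a7, on chromosome 19 from 20692953 to 20727562 on the minus strand, which read 0.994 to 3.16 CPM. Reads that fit both genes may be lost or divided between them. The amount in Aldh1a7 was small beside the 38.1 to 68.4 CPM of Aldh1a1, which does not give the number of reads lost. Aldh4a1 (chromosome 4, 139622866 to 139649690, plus strand) shares 32.5% of its exon length with Gm21969 on the same strand, and Aldh6a1 (chromosome 12, 84430717 to 84451004, minus strand) 18.6% with Bbof1 on the opposite strand. Reads in those stretches may be lost or shared, and whether counting used the strand was not stated. Aldh5a1 (chromosome 13, 24907579 to 24937661, minus strand) and Aldh1l1 (chromosome 6, 90486427 to 90600203, plus strand) share 14.1% and 11% with an antisense gene.

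Known NRF2 target genes were examined in the same fits. Of 31 tested, 0 passed with SFN in ConAstro and 0 in cKOAstro, with medians of 0.033 and 0.053 beside -0.0055 and 0.0061 over all genes. In ConAstro, 20 of 31 lay above 0, with the lowest p-values for Osgin1 (0.56) and for Cat, which encodes catalase (0.14; lowest edgeR adjusted p = 0.814). In cKOAstro, 23 of 31 lay above 0, with the lowest p-values for Gstp1, a glutathione transferase (0.41), and for Gclc, the catalytic subunit of the enzyme that limits glutathione synthesis (-0.18; lowest adjusted p = 0.459).

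The enzymes around each relative were examined with the same test, and on the control diet 0 of the genes on the lists passed, other than Aldh7a1 on that of lysine catabolism. The further aldehyde dehydrogenases were mostly low, with Aldh3b1 highest at 34.6 ± 5.03 CPM over the 23 libraries (SD), Aldh16a1 at 18.5 ± 2.70 CPM and the mitochondrial folate enzyme Aldh1l2 at 14.1 ± 3.04 CPM. Aldh1a2, a retinaldehyde dehydrogenase typical of meninges, ran from 0.67 to 7.86 CPM. Aldh1a3, Aldh3a1, Aldh3b2, Aldh3b3 and Aldh8a1 were each below 1 CPM in every library. Of 9 tested for genotype on the control diet, Aldh1a7 and Aldh1a3 had the lowest p, with log2 fold changes of -0.27 and -0.36 (edgeR adjusted p = 0.981). On the SFN diet, Aldh1a2 had -1.29 and Stra6, a retinol transporter, -1.08 (edgeR adjusted p = 0.195 for both) and Aldh3b2 1.04 (adjusted p = 0.216). The fibroblast and meningeal markers stood at a median log2 fold change of -0.57, but their summed level went the other way. It had a median of 2240 CPM in SFN-fed cKOAstro (1140 to 2600) and of 1460 CPM in SFN-fed ConAstro (1150 to 1710). The part of these markers was not tested.

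Enzymes next to Aldh6a1 in branched-chain amino acid catabolism had 15 of 20 values above 0 by genotype on the control diet (median 0.064), and 17 of 20 on the SFN diet (median 0.14). In the fit over both diets, 18 of 20 lay above 0 with a median of 0.11, led by Ivd, isovaleryl-CoA dehydrogenase (0.27), and Bckdha, a subunit of the branched-chain ketoacid dehydrogenase (0.21; edgeR adjusted p = 0.159 for both). Of the 20 genes, 8 had an unadjusted p under 0.05 against the 20.6% of all genes. The median over all genes was -0.0072 on the control diet, 0.0073 on the SFN diet and 0.0083 over both. Libraries against their label were kept in the fits with SFN, and the part of cell type markers in these values was not tested. With SFN in ConAstro, 16 of 20 lay below 0 (median -0.040). Aldh6a1 stood within 0.1 of 0 in all of these.

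The pathway of Aldh4a1 and Aldh18a1 also held no call. Of 9 genes of proline and glutamate metabolism, 0 passed by genotype, with Prodh, the proline dehydrogenase that makes the substrate of ALDH4A1, at 0.23 on the control diet, 0.50 on the SFN diet and 0.38 over both (edgeR adjusted p = 0.981, 0.195 and 0.165). In the GABA shunt and amine oxidation, beside Aldh5a1 and Aldh9a1, Sat1, a polyamine acetyltransferase, had -0.18 by genotype on the control diet and -0.26 with SFN in ConAstro (adjusted p = 0.981 and 0.762). Smox, spermine oxidase, had 0.59 by genotype on the SFN diet (adjusted p = 0.195). None passed the adjusted threshold.

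For the neighbours of the other relatives, counts were again 0 past the threshold. One-carbon folate metabolism, around Aldh1l1, had a median of -0.0057 over 19 genes on the control diet, with Fpgs (-0.15) and Slc25a32 (-0.13) at the lowest p. Retinoid metabolism, around Aldh1a1, had a median of 0.044 over 20 genes by genotype and of 0.023 over 18 with SFN in ConAstro, where Rara, a retinoic acid receptor, had 0.28 (edgeR adjusted p = 0.814). In sphingolipid and fatty aldehyde metabolism, around Aldh3a2, Sgpp2 had -0.54 by genotype on the control diet and Sphk1, a sphingosine kinase, -2.66 with SFN in ConAstro (adjusted p = 0.981 and 0.762). Among aldehyde reductases and other carbonyl detoxifying enzymes, 11 of 15 lay above 0 by genotype on the control diet (median 0.058) and 12 of 15 on the SFN diet (median 0.13), where Hagh, glyoxalase 2, had 0.27 (adjusted p = 0.195). Over all genes the medians were -0.0072 and 0.0073, and the part of cell type markers was not tested. Of the 7 genes of lysine catabolism, Crym, whose product acts as ketimine reductase, had 1.5 by genotype on the control diet (adjusted p = 0.981), where Aldh7a1 passed.

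The members varied among libraries about as much as genes in general, with a median SD of log2 CPM of 0.136 beside 0.148 over the 17302 genes tested. Aldh1a1 had the highest SD of the 10, 0.231, above that of 75.5% of genes, and Aldh3a2 the lowest, 0.0783. Some members varied together within groups, since with group means removed the correlation over 23 libraries was 0.874 between Aldh1l1 and Aldh4a1 and 0.822 between Aldh5a1 and Aldh6a1. In the 17 numbered libraries these were 0.773 and 0.902 without that step. Aldh18a1 and Aldh9a1 went opposite ways (-0.44), though not in the numbered libraries (0.0684). These are descriptions over libraries that differ in depth and name series.

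**Figure D4:**
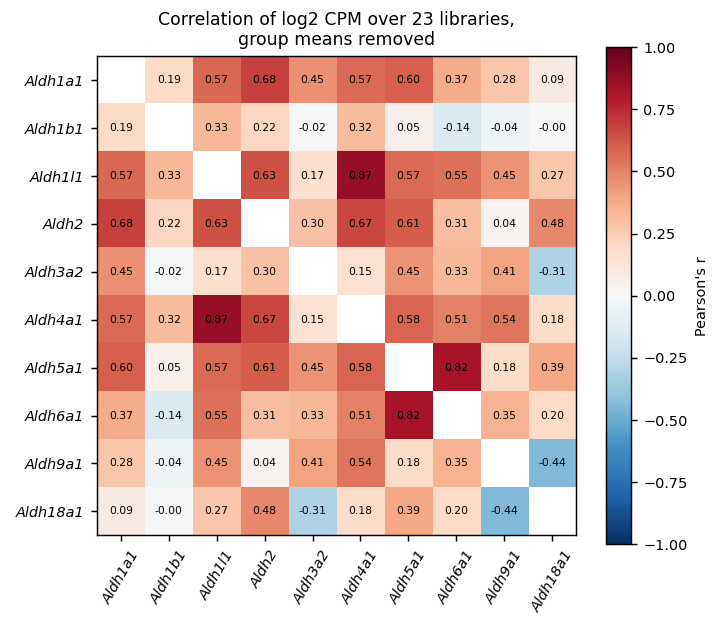
Pearson's r of log2 CPM between each pair of relatives over 23 libraries after group means were removed, from -1 (blue) to 1 (red). Aldh1l1 with Aldh4a1 (0.874) and Aldh5a1 with Aldh6a1 (0.822) are the highest pairs, and Aldh9a1 with Aldh18a1 the lowest (-0.44).

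Across the 23 libraries, with no group means removed, the genes most like each member were taken as the 3 with the highest Pearson r of log2 CPM. Aldh5a1 went with Cs (r = 0.946), Acadsb (0.919) and Abat (0.911). Aldh1l1 went with Pgm2 (0.943), Pfkm (0.923) and Slc25a20 (0.908), and Aldh2 with Slc25a5 (0.880), Tmem176b (0.878) and Acadm (0.872). Aldh4a1 had Tmie (0.900), Idh3b (0.825) and Prdx6 (0.818), and Aldh6a1 had Mmgt1 (0.863) and Tmem209 (0.842).

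Aldh3a2 had Zfp706 (0.865), Cldnd1 (0.859) and Tmem5 (0.859), while Aldh9a1 had Phkg2 (0.835), Hdac3 (0.810) and Oxa1l (0.798). Aldh1a1 went with E030003E18Rik (0.875), Myh15 (0.835) and Fndc5 (0.808). The lowest values were those of Aldh18a1, with Wwc1 (0.726), Itpkb (0.700) and Ajuba (0.699), and Aldh1b1, with Tmc5 (0.694), Car4 (0.690) and Gm12866 (0.685). Of the 30 genes so chosen, 23 stayed among the closest 3 without the libraries against their label and 9 in the numbered libraries alone.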

How the data were processed

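RNA-seq was made from polyadenylated RNA (NEBNext Ultra II, paired-end, NovaSeq6000). Per the labels, the authors checked reads with FastQC and aligned them to mm10 with STAR, and deposited the raw counts of each gene symbol in every library, not normalized. Tool versions, the annotation and the strand setting are not given in the sources used here. Counts were tested with edgeR 4.0.16 in R 4.3.3 (TMM normalization, filterByExpr with a minimum count of 10 and a minimum total of 15, quasi-likelihood F-test), on the 2 groups compared, or on all 4 for the interaction and the additive fits, with Benjamini-Hochberg adjustment over all genes tested and a threshold of 0.05. SE is the log2 fold change over the square root of F, and intervals are at 95%. CPM are on TMM-scaled totals over all 23 libraries, and log2 CPM carry a prior of 2. Exon lengths and positions come from GENCODE M21 (GRCm38). The table held 0 columns beyond the 23 libraries, and 23376 of its 24411 symbols are in GENCODE M21. The study compared groups with DESeq2, used here (1.42.0) as an alternative, beside limma-voom (limma 3.58.1), RLE normalization, no filter, the replicate block, all groups in 1 fit, the name series or prefix as a covariate, and libraries left out. Each mouse gave 1 library. The chi-square per degree of freedom between libraries of a group was at least 42.4, so no pair looked like 1 library sequenced again. This check cannot tell preparations of the same mouse from those of different mice. Each library was counted as 1 replicate. The scripts were tested on simulated data.

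The members, the gene lists and the tests were chosen with earlier results of these data known. Genes were named by rule as the 10 members, Aldh7a1, Slc1a3, Esr1, Xist and Ddx3y, the genes of each list past the threshold or else those with the lowest p, and the 3 genes most like each member by Pearson's r. A few genes that these rules name are not reported here.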

Additional observations from a re-analysis of the deposited data

Results flagged for a closer look

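In 4 of the 40 combinations of member and group, 1 library stood apart from the rest by Dixon's criterion, which chance meets in about 1 in 20 groups. Aldh2 had 234 CPM in ConAstro 1 against 277 to 285 CPM in the other ConAstro libraries, and without it the genotype difference on the control diet was -0.075 ± 0.090 (log2) in place of -0.015. Aldh4a1 had 114 CPM in ConAstro 4 against 101 to 104 CPM, and without it that difference was 0.18 ± 0.076 (edgeR adjusted p = 1) in place of 0.14. Aldh3a2 had 95.6 CPM in SFN-fed cKOAstro 4 against 75.5 to 83.6 CPM, and without it the difference with SFN in cKOAstro was -0.0042 ± 0.052 in place of 0.038. Aldh18a1 had 16.5 CPM in SFN-fed ConAstro 3 against 13.5 to 14.3 CPM, and without it the difference with SFN in ConAstro was 0.0094 ± 0.095 in place of 0.060.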

How the results depend on the processing

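Over 8 comparisons, the number of members past the adjusted threshold of edgeR was 0, and it was 0 under every alternative run but one. With limma-voom and sample quality weights, 1 member (Aldh1a1, log2 fold change -0.45, adjusted p = 0.0493) passed in SFN-fed cKOAstro against ConAstro, where that tool called 656 genes in all, and the cause was not tested. The number of genes called moved with the tool in every comparison, from 4 with edgeR on the control diet and 0 elsewhere to 8, 250, 24, 15, 8, 3, 57 and 2 with DESeq2 in the order genotype on the control diet, genotype on the SFN diet, SFN in ConAstro, SFN in cKOAstro, SFN-fed cKOAstro against ConAstro, interaction, genotype over both diets and diet over both genotypes, and to 4398 with limma-voom for genotype on the SFN diet. Leaving out each library in turn gave between 0 and 0 members called in each comparison. The genes called in all went from 0 to 701 for genotype on the SFN diet and from 0 to 215 for genotype over both diets without SFN-fed cKOAstro 3, and from 4 to 2 for genotype on the control diet without ConAstro 4, and the cause was not tested. With the replicate block, 0 members passed in each comparison. Replicate numbers are not stated to pair mice, libraries of the same number correlated at a median of 0.015 (over 0.1 in 11 of 29 pairs), and 0 of 23 libraries correlated best with one of their own number. Of 2050 member values under alternatives, 147 had the sign opposite to the reported value, all of them uncalled, and 42 of 80 combinations of member and comparison kept their sign throughout. Adding the name prefix as a covariate was chosen after seeing the data. For Aldh1a1 that fit gave -0.25 (adjusted p = 0.591) in SFN-fed cKOAstro against ConAstro, and its interaction went from 0.12 to -0.39. The prefix could not be fitted for genotype on the control diet or for SFN in ConAstro, where it cannot be told apart from the group, and leaving out the libraries against their label changes nothing on the control diet, which holds none of them. With the longest transcript as length, the median level was 26.6 CPM per kb, and 28 of 40 levels moved by more than 1 SD. Only 9 of the 30 most like genes stayed in numbered libraries. With 4 to 7 libraries a group, the stated intervals give the differences that remain compatible with these data.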
